A study of Mus musculus with 16 samples.

Results

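The response of the esophagus to oxazolone was followed in mice that lack Il13ra1. Log2 fold changes below are on the log2(value + 1) scale and are given with their SE and the adjusted p of limma. The response was read as the difference between 4 libraries of oxazolone-treated Il13ra1-/- mice and 4 libraries of vehicle-treated Il13ra1-/- mice. A gene entered the comparison when its deposited value was at least 5 in at least 4 of these 8 libraries. That left 15531 of the 41411 genes in the deposited table. The OXA group received oxazolone, a chemical allergen, in a mouse model of eosinophilic esophagitis, and the vehicle group received the control treatment. All mice were of the C57BL/6 strain and the tissue was esophagus. Both groups carried the Il13ra1-/- genotype (KO), for which the labels name no promoter or Cre. The unit of every level is the deposited normalized count, and levels are listed for replicates 1 to 4 in order. The 8 other libraries, 4 of wild-type (WT) mice given OXA and 4 of WT mice given vehicle, served for the spread between libraries and for the test of whether the OXA effect differed between genotypes. The sources used here do not give age, sex, dose, time of treatment or batch. They also leave unstated whether each library came from its own animal, so p-values measure the spread between these libraries only.

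IL-13 signals through a receptor built from Il13ra1 and Il4ra, which also serves IL-4 on epithelial and other non-lymphoid cells. A second receptor for IL-4, made of Il4ra and Il2rg, sits mainly on lymphoid and myeloid cells and does not need Il13ra1. Ligand binding activates Stat6, and in esophageal epithelium this pathway is known for driving keratinocyte growth and loss of differentiation. Interferons use other receptors. Type I interferon brings Stat2 and Irf9 into a complex that binds interferon-stimulated response elements, and interferon gamma induces Irf1 through gamma-activated sites. The targets include antiviral proteins, guanylate-binding proteins, the chemokines Cxcl9 and Cxcl10, and the machinery that presents peptides on MHC molecules.

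The upstream sequences of risen genes are shown because these genes led the response. The 300-base windows come from RefSeq (GRCm38.p6), run from 250 bases before to 50 bases after each annotated start, and were searched on both strands. A core form of the interferon-stimulated response element, GAAA followed by any 2 bases and another GAAA, was found in 56 of 231 risen genes with a window (24.2%), in 446 of 11576 genes tested (3.85%) and in 1131 of 32851 windows of the table (3.44%). The letters TTCNNNGAA, a core form of the gamma-activated site, were found in 34 of 231 risen genes (14.7%) and in 2726 of 32851 windows (8.30%), and overlapped the first motif in 24 windows. All 7 interferon-induced GTPase genes with a window held the paired GAAA motif, as did 16 of 30 antiviral genes, 4 of 16 class I genes and 1 of 11 class II genes. The letters CTGATTGG, a form of the Y box known from MHC promoters, were in 7 of 16 class I genes, 2 of 11 class II genes, 0 of 30 antiviral genes and 6 of 31 cell cycle genes (19.4%). They were also in 21 of 231 risen genes (9.09%), 722 of 11576 genes tested (6.24%) and 1346 of 32851 windows (4.10%). A match is a description of the sequence and not a measured binding site. Each stretch below starts 30 bases before the first match and ends just before the annotated start. Capitals mark the paired GAAA motif on either strand in the first 6, which stand for the GTPases, the antiviral genes, a chemokine, the class I light chain and a macrophage Fc receptor, and CTGATTGG in the last pair, which are class II genes.
Gbp2b (chr3:142594680-142594846, plus strand): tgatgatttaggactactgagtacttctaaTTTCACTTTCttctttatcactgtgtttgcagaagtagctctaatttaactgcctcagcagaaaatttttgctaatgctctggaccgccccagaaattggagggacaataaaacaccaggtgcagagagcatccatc
Isg15 (chr4:156200819-156200926, minus strand): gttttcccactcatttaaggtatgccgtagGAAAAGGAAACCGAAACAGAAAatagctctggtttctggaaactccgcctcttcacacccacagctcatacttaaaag
Oas3 (chr5:120777662-120777764, minus strand): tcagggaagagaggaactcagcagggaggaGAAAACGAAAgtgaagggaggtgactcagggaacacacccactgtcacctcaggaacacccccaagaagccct
Cxcl10 (chr5:92348890-92349132, minus strand): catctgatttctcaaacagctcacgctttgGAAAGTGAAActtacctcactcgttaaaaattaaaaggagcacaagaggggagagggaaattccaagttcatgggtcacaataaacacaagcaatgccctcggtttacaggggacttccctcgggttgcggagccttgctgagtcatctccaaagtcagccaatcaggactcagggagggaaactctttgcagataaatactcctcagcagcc
B2m (chr2:122147518-122147685, plus strand): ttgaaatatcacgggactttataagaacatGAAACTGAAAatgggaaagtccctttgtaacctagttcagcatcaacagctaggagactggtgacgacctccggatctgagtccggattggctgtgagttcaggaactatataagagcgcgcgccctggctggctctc
Fcgr4 (chr1:171018823-171018919, plus strand): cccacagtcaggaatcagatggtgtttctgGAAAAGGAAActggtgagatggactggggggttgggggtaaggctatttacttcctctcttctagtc
H2-Aa (chr17:34287828-34287904, minus strand): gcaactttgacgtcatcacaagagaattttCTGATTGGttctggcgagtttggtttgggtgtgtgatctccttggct
H2-Eb1 (chr17:34305775-34305866, plus strand): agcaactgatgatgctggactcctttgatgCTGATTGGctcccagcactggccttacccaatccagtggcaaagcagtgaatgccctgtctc

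Depth, recovered from the deposited values, lay between 7.91 and 16.5 M (mega) reads in the 8 KO libraries. It averaged 12.9 ± 3.64 M under vehicle and 11.6 ± 2.71 M under OXA (SD, n = 4; two-sided exact permutation p = 0.571, adjusted p = 0.857 over 3 such measures, where the smallest p the design allows is 0.0286). Mitochondrial rRNA took 1.14% ± 0.431 and 0.776% ± 0.273 of reads (exact permutation p = 0.257, adjusted p = 0.771). The WT libraries that enter the interaction differed more in depth, at 7.64 ± 1.70 M under vehicle and 23.3 ± 3.63 M under OXA (SD, n = 4), and whether depth contributed to the interaction was not tested. Il13ra1 (ENSMUSG00000017057, chromosome X, 36112110 to 36171259, GRCm38), the deleted gene, stood at 31.2, 64.7, 48.7 and 55.8 under vehicle and at 44.0, 174, 68.1 and 110.3 under OXA in KO. In WT its values ran from 134 to 226 under vehicle and from 584 to 874 under OXA, so no KO library reached the WT level of its own treatment. Reads were sampled near the 3' end, and which part of the gene was deleted is not stated, so these reads may lie outside it. The tissue label was checked against the esophageal keratins: Krt13, a suprabasal keratin, was at 237588, 285674, 326741 and 269874 under vehicle and at 511527, 211516, 336715 and 303502 under OXA, and Krt4, its partner, was higher than Krt13 in every KO library. Several KO libraries stood apart. OXA replicate 4 held 23730 genes above 0 against 16954 to 19600 in the 7 others, and it lay on the vehicle side of the first principal component, which took 31.8% of the variance. OXA replicate 1 lay farthest from the vehicle libraries on that axis. Vehicle replicate 2 and OXA replicate 2 were rich in B and plasma cell transcripts: the summed level of the 18 markers was 2117, 11454, 2241 and 2713 under vehicle and 3209, 9274, 2463 and 2063 under OXA.

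In KO mice 300 genes rose and 16 fell with OXA (adjusted p under 0.05, limma), which is 2.03% of the genes tested (1.93% higher and 0.103% lower). Of the gene lists examined, most tested members rose among the interferon-induced GTPases, the antiviral genes, the immunoproteasome, class I presentation and the macrophage markers. The CC chemokine and cytotoxic lists are left out of that statement. There 5 of 17 and 7 of 8 tested members had fewer than 4 vehicle libraries at the filter value of 5. Of the risen genes, 58 had fewer than 4 vehicle libraries at the filter value of 5 and entered only with the help of OXA libraries. The same held for 4 of the 10 risen CC and 2 of the 6 risen CXC chemokines and receptors. It also held for 4 of the 15 risen macrophage markers, 3 of the 6 risen IL-4 and IL-13 response genes and 2 of the 3 risen T cell markers. Ccl8, a monocyte chemokine, Cxcl9, a chemokine induced by interferon gamma, and Gzmb, the cytotoxic protease granzyme B, were among the largest rises. All genes tested had a median log2 fold change of -0.02. At an unadjusted p under 0.05, 1504 of the 15531 genes were higher and 767 lower, the background for the unadjusted counts below. The groups did not overlap for 266 of the risen and 16 of the fallen genes, while 7.09% of all genes tested had groups that did not overlap, 4.04% with OXA higher and 3.05% with OXA lower. Without OXA replicate 4 the counts were 881 and 159, and they included 298 of the 300 risen and 15 of the 16 fallen genes. Leaving out 1 of the 7 other KO libraries gave 176 to 336 risen and 3 to 18 fallen genes. The lowest counts of risen genes came without OXA replicate 2 (176), OXA replicate 1 (183), vehicle replicate 3 (193) and vehicle replicate 1 (196).

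**Figure D1:**
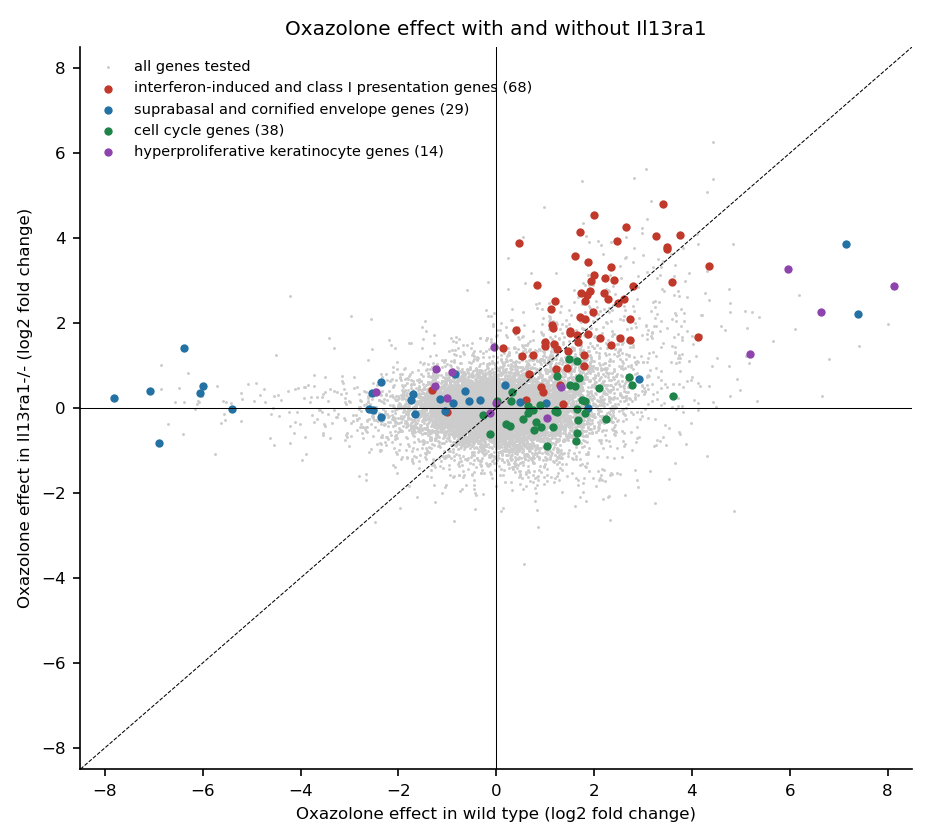
Each point is 1 of 15531 genes, with the OXA effect in WT on the x axis and the OXA effect in KO on the y axis, both as log2 fold changes. Most interferon-induced and class I genes lie above 0 on both axes (of 40 antiviral genes 1 was below 0 in KO and 2 fell in WT), while cell cycle, cornified and hyperproliferative genes spread along the x axis and stay nearer to 0 on the y axis.

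Interferon gamma transcripts were scarce, and 5 genes of the interferon pathway rose. Ifng, interferon gamma, had 0 reads in all 4 vehicle libraries and 4, 4, 2 and 8 reads in the OXA libraries. Over the group this is 0.389 CPM against at most 0.0583, the level of 3 reads over the vehicle group. The ratio of these values is 6.67, which leaves out the counting error of the 18 OXA reads and the spread between libraries. Ifng lay under the filter and was not tested. Of 24 interferon receptors, kinases and transcription factors tested, 5 rose and 0 fell. Irf7, the factor that amplifies type I interferon, was at 36.1, 49.2, 28.9 and 32.8 under vehicle and at 1206, 692, 149.8 and 641 under OXA (3.85 ± 0.65, adjusted p = 0.00162). All 4 OXA libraries lay above all vehicle libraries, with replicate 3 lowest. Irf9, the DNA-binding part of the type I interferon complex, was at 653, 632, 485 and 435 and then at 2384, 1472, 1438 and 1668 (1.65 ± 0.20, adjusted p = 6.09e-05). Its change was larger in KO than in WT, where it stood at -0.20 ± 0.20, adjusted p = 0.477 (interaction 1.84 ± 0.28, adjusted p = 2.10e-04). Stat2 changed by 1.54 ± 0.31, adjusted p = 0.00911 and Irf1 by 1.68 ± 0.31, adjusted p = 0.0035. Socs1, a feedback inhibitor of cytokine signalling, stood at 1.08 ± 0.31, adjusted p = 0.0843 and passed without OXA replicate 3, with DESeq2 and with edgeR (adjusted p of 0.00316 to 0.0264). Its change was smaller in KO than in WT (interaction -1.75 ± 0.44, adjusted p = 0.00837). Stat6 itself stood at 0.39 ± 0.14, adjusted p = 0.211 (95% confidence interval 0.09 to 0.69).

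All 9 interferon-induced GTPases tested rose, and none overlapped between the groups (background 1.93% called higher). These proteins attack the vacuoles of intracellular pathogens. Gbp2 (ENSMUSG00000028270, chromosome 3, 142620602 to 142638008) was at 169, 173, 169 and 266 under vehicle and at 3489, 2152, 1068 and 2355 under OXA (3.45 ± 0.32, adjusted p = 5.91e-06). The 4 OXA libraries were all above 1000, and the highest vehicle library was replicate 4. Gbp2b, whose upstream stretch is shown above, was at 2.92, 6.04, 1.52 and 8.21 and then at 187, 143, 58.2 and 117 (4.54 ± 0.45, adjusted p = 7.15e-06). Its rise was larger than in WT (interaction 2.55 ± 0.63, adjusted p = 0.00797). Gbp3 changed by 2.87 ± 0.35 and Gbp7 by 2.52 ± 0.35. Among the immunity-related GTPases, Iigp1 was at 63.4, 122, 82.9 and 83.7 and then at 1095, 1669, 868 and 1877 (3.92 ± 0.47, adjusted p = 5.34e-05), Irgm1 changed by 2.72 ± 0.33 and Irgm2 by 2.76 ± 0.33. The number risen was 8 without OXA replicate 2 or vehicle replicate 4. The median over the 9 was 2.76 in KO and 1.99 in WT.

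Of 40 antiviral interferon-stimulated genes tested, 31 rose and 0 fell, with a median log2 fold change of 1.93. Isg15, a ubiquitin-like modifier, was at 43.9, 83.7, 61.6 and 44.3 under vehicle and at 1601, 1057, 428 and 1484 under OXA (4.15 ± 0.60, adjusted p = 3.17e-04). Oas3, which makes the oligoadenylates that activate RNase L, was at 25.3, 16.4, 15.2 and 16.4 and then at 407, 329.8, 146 and 857 (4.25 ± 0.58, adjusted p = 1.71e-04). Zbp1, a sensor of nucleic acids that can start necroptosis, was at 9.75, 27.6, 9.89 and 14.8 and then at 831, 583, 192 and 345 (4.81 ± 0.76, adjusted p = 8.06e-04). In each of these genes the groups were apart and OXA replicate 3 was the lowest OXA library. Ifit1, which binds viral RNA, changed by 3.58 ± 0.56, adjusted p = 6.69e-04, and Bst2 (tetherin), which holds budding virus at the cell surface, by 3.06 ± 0.40, adjusted p = 1.15e-04. Ifi27l2a, an interferon-induced mitochondrial protein, was at 135, 200.2, 151 and 133 and then at 5176, 3358, 781 and 1906 (3.88 ± 0.45, adjusted p = 3.70e-05). In WT it stood at 0.47 ± 0.45, adjusted p = 0.447, and the difference between genotypes passed (interaction 3.41 ± 0.63, adjusted p = 0.00103). Apol9a, an interferon-induced apolipoprotein L gene, was at 39.0, 20.7, 37.3 and 8.21 and then at 579, 486, 186 and 1008 (4.35 ± 0.91, adjusted p = 0.0117), a call lost without vehicle replicate 4 and with no trend (adjusted p of 0.0526 to 0.0538). In WT 34 of the 40 rose and 2 fell (background 18.4% and 17.2%).

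**Figure D2:**
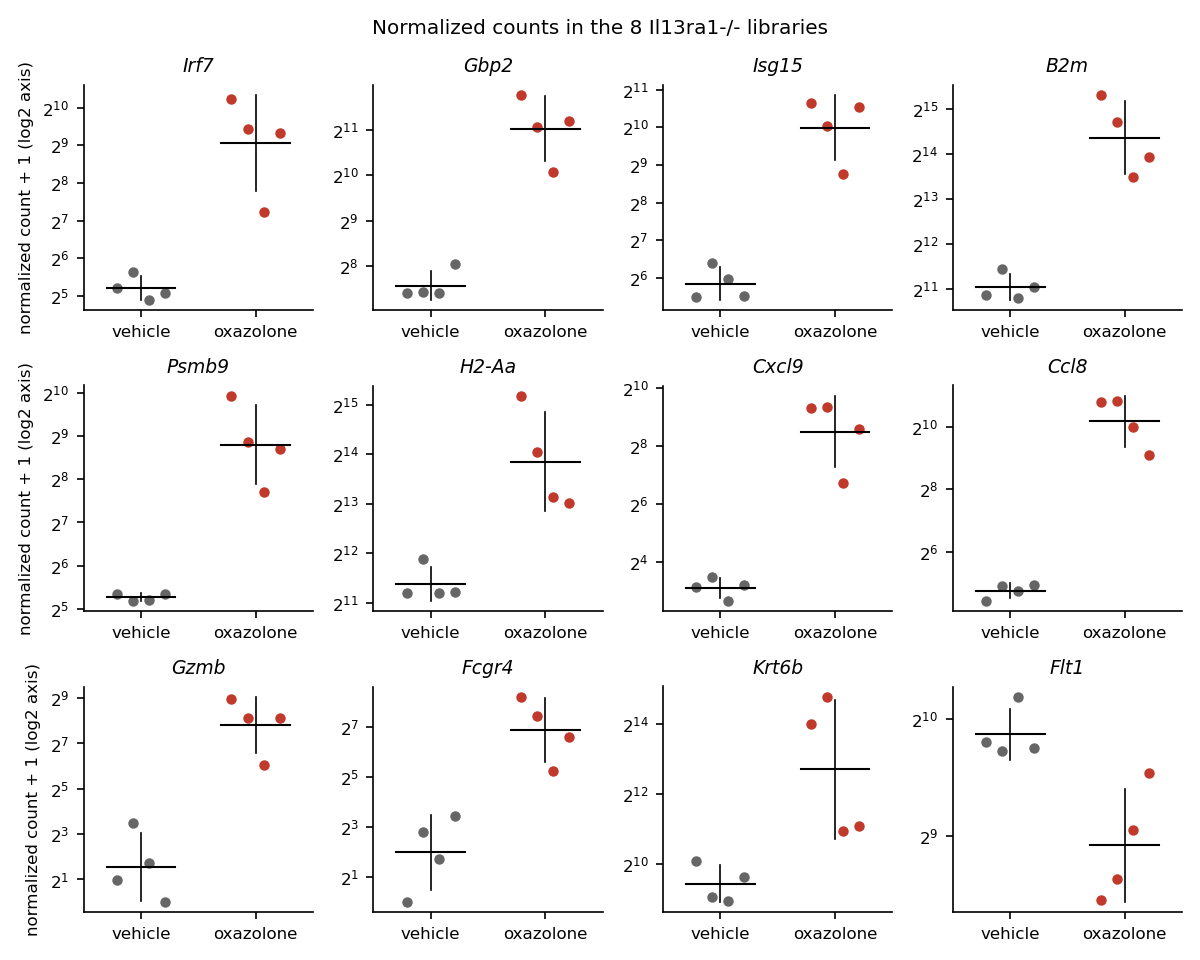
Points give the deposited normalized count plus 1 in each KO library on a log2 axis that differs between panels, for vehicle (grey) and OXA (red) and for replicates 1 to 4 from left to right in each group. Horizontal lines are means and vertical lines SDs of log2 values (n = 4), and in 11 of the 12 genes all OXA points lie above all vehicle points, while Flt1 shows the reverse.

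Genes of the class I presentation pathway rose together. Of 19 class I and peptide-loading genes tested, 13 rose and 0 fell. B2m, the light chain of every class I molecule, was at 1870.5, 2781, 1789 and 2094 under vehicle and at 40806, 26756, 11470.5 and 15629.8 under OXA (3.32 ± 0.33, adjusted p = 7.33e-06). OXA replicate 3 was again lowest, and still above every vehicle library. The heavy chain H2-K1 was at 2213, 2522, 2000.4 and 2606 and then at 30071, 20174, 9287 and 21712 (3.01 ± 0.30, adjusted p = 7.15e-06), and H2-D1 changed by 1.77 ± 0.19, adjusted p = 2.45e-05. The non-classical H2-Q7 changed by 4.06 ± 0.47, adjusted p = 3.70e-05. Class I heavy chains are near-identical in sequence, so the split of reads among them is uncertain. Nlrc5, the transactivator of class I genes, was at 17.5, 19.9, 25.1 and 18.1 and then at 418, 455, 169.6 and 449.9 (4.06 ± 0.42, adjusted p = 1.27e-05). Tap1 and Tap2, which carry peptides into the endoplasmic reticulum, changed by 2.57 ± 0.33 and 1.59 ± 0.26, and Tapbp (tapasin), which holds class I molecules at that transporter, by 1.23 ± 0.23, adjusted p = 0.00391.

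All 5 genes of the immunoproteasome and its activator rose, and 4 did without OXA replicate 1 or 2 or any 1 vehicle library. Psmb9 was at 40.0, 35.4, 35.8 and 39.4 under vehicle and at 975, 467, 208 and 416 under OXA (3.53 ± 0.36, adjusted p = 1.06e-05). Psmb8 changed by 3.34 ± 0.30, adjusted p = 4.34e-06, Psmb10 by 1.97 ± 0.27, adjusted p = 1.93e-04 and the activator subunit Psme2 by 1.41 ± 0.22, adjusted p = 7.13e-04. These catalytic subunits replace those of the constitutive proteasome and favour peptides that fit class I molecules. Of 14 constitutive 20S subunits 2 rose, with a median of 0.56 and all 14 changes above 0. In WT their median was -0.21, and 7 of the 14 changes were higher in KO than in WT by the interaction (background 11.1%, and 3 of the 14 with equal library totals, background 5.81%). Psmb3, a structural subunit, was at 748, 889, 606 and 757 and then at 2395, 1696, 1389 and 934 (1.03 ± 0.21, adjusted p = 0.0105). Its call was lost without vehicle replicate 3 and in a fit to the 8 KO libraries (adjusted p of 0.054 to 0.0592). Psma4, the other risen subunit, was at 1996, 2223, 1998 and 2370.1 and then at 4423, 4010.2, 4040.1 and 2253, with replicate 4 inside the vehicle range (0.74 ± 0.18, adjusted p = 0.0319), and its call was lost without OXA replicate 1, 2 or 3 or any 1 vehicle library and under 4 other alternatives (adjusted p of 0.0516 to 0.137). The number of risen subunits was 9 without OXA replicate 4, 0 without vehicle replicate 3 and 1 without OXA replicate 1 or 2 or vehicle replicate 1, 2 or 4.

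Class II presentation rose as well: of 17 genes tested 8 rose and 0 fell. H2-Aa was at 2342, 3764, 2329 and 2375 under vehicle and at 37134, 16983, 8984 and 8273 under OXA (2.48 ± 0.34, adjusted p = 1.82e-04). OXA replicate 1 was highest, and vehicle replicate 2, a library rich in B cell transcripts, stood above the 3 other vehicle libraries. H2-Eb1 was at 1932, 1943, 1976 and 1466 and then at 15331, 10634, 5939 and 8944 (2.41 ± 0.23, adjusted p = 6.83e-06). H2-Ab1 changed by 2.2 ± 0.25, and the invariant chain Cd74, which escorts class II molecules, by 1.89 ± 0.24, adjusted p = 9.80e-05. H2-DMa, which edits the peptides they carry, changed by 1.63 ± 0.26, and Ctss (cathepsin S), which trims the invariant chain, by 2.26 ± 0.31. Ciita, the class II transactivator, was at 31.2, 57.0, 28.9 and 8.21 and then at 93.5, 181, 40.9 and 87.5, with 1 OXA library inside the vehicle range (1.74 ± 0.44, adjusted p = 0.0454). That call was lost without OXA replicate 1 or 2, vehicle replicate 1, 3 or 4, any 1 WT OXA library or WT vehicle replicate 1, 2 or 3 and under 5 other alternatives (adjusted p of 0.0532 to 0.189). Whether more class II RNA came from more antigen-presenting cells or from more RNA per cell cannot be told apart in whole tissue, and the same holds for the cell type markers below.

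Chemokines that draw monocytes and activated T cells rose. Of 12 CXC chemokines and receptors 6 rose, and of 17 CC chemokines and receptors 10 rose, with 0 fallen in either list. The CXC count was 4 without OXA replicate 1 or 2 or vehicle replicate 1 or 3. The CC count was 7 without OXA replicate 1 or 2. With a stricter filter (a value of at least 20) the counts were also 4 and 7. Of the tested members, 3 CXC and 5 CC genes entered only with the help of OXA libraries. Cxcl9 (ENSMUSG00000029417, chromosome 5, 92321347 to 92328079) was at 7.80, 10.4, 5.33 and 8.21 under vehicle and at 647, 655, 105 and 390.0 under OXA (5.38 ± 0.46, adjusted p = 2.33e-06). Cxcl10 was at 41.9, 25.0, 41.1 and 60.7 and then at 1273, 468, 291 and 578 (3.77 ± 0.66, adjusted p = 0.00226). Both bind Cxcr3, whose own reads, 17 under vehicle and 6 under OXA, were too few to test. Xcl1, made by cytotoxic lymphocytes, was at 0, 0.860, 6.85 and 0 and then at 101, 72.6, 24.8 and 15.8 (4.44 ± 0.77, adjusted p = 0.00196), and Cxcl16 changed by 2.46 ± 0.35. Ccl8 (ENSMUSG00000009185, chromosome 11, 82115185 to 82116799) was at 20.5, 29.3, 25.9 and 29.5 and then at 1777, 1806, 1013 and 548 (5.42 ± 0.37, adjusted p = 8.71e-08). Its neighbour Ccl12 was at 2.92, 1.73, 8.37 and 3.28 and then at 154, 169, 109 and 73.3 (4.73 ± 0.51, adjusted p = 1.91e-05). For both the rise was larger in KO than in WT, where they stood at 2.82 and 0.97 (interaction 2.60 ± 0.52, adjusted p = 0.00193 for Ccl8, and 3.76 ± 0.72, adjusted p = 0.00139 for Ccl12). Ccl6, a macrophage chemokine, showed the same order (KO 1.88 ± 0.22, WT 0.38, interaction 1.5 ± 0.31, adjusted p = 0.00276). Ccl7 changed by 2.05 ± 0.40, adjusted p = 0.00663. Ccl2, another monocyte chemokine, was at 544, 529, 274 and 54.2 and then at 550.1, 606, 688 and 365, so the groups overlapped and the test was not passed (1.07 ± 0.60, adjusted p = 0.44). Ccl5, a chemokine that draws T cells, changed by 3.37 ± 0.70, adjusted p = 0.011, a call lost without OXA replicate 1 or 2 and in a fit to the 8 KO libraries (adjusted p of 0.0511 to 0.0646). The eotaxins, which draw eosinophils, did not pass: Ccl11 stood at 0.52 ± 0.21, adjusted p = 0.242 (95% confidence interval 0.09 to 0.95) and Ccl24 at 0.32 ± 0.44, adjusted p = 0.794 (-0.60 to 1.24). Ccl24 changed sign without vehicle replicate 4.

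Some single cytotoxic genes were called higher, from low vehicle levels. Of 8 cytotoxic effectors and NK receptors tested, 5 rose, and the 8 others on the list lay under the filter. Of the 8, 7 entered only with the help of OXA libraries, so the count is not read as a result about the list. It was 2 with a stricter filter (a value of at least 20). Gzmb (ENSMUSG00000015437, chromosome 14, 56258838 to 56262260) was at 0.970, 10.4, 2.28 and 0 under vehicle and at 499, 279, 64.4 and 276 under OXA (6.26 ± 0.88, adjusted p = 2.30e-04). OXA replicate 3 was lowest, still above every vehicle library. Gzma, a second granule protease, was at 0.970, 0, 0 and 6.57 and then at 106, 67.9, 9.90 and 15 (4.10 ± 0.88, adjusted p = 0.0137). Its call was lost without OXA replicate 1 or 2 or vehicle replicate 3 (adjusted p of 0.059 to 0.0799). Klrk1 (NKG2D), an activating receptor of NK cells and T cells, was at 7.80, 12.1, 7.61 and 14.8 and then at 78.8, 111, 37.1 and 52.8 (2.55 ± 0.36, adjusted p = 2.30e-04). Klrd1 (CD94), a partner of NK receptors, changed by 3.32 ± 0.72, adjusted p = 0.015 and the granule protein Nkg7 by 3.62 ± 0.81, adjusted p = 0.018. The call on Klrd1 was lost without OXA replicate 1 or 2 or vehicle replicate 3 and in a fit to the 8 KO libraries (adjusted p of 0.07 to 0.0847). That on Nkg7 was lost without OXA replicate 1 or 2 or vehicle replicate 1, 3 or 4, with array weights and in a fit to the 8 KO libraries (adjusted p of 0.0555 to 0.122). Klra2, a Ly49-family receptor of NK and myeloid cells that is not on this list, changed by 4.24 ± 0.70, adjusted p = 0.00124. Prf1, the pore former perforin, had 0 reads under vehicle and 12, 1, 0 and 5 under OXA. With 3 reads taken for the vehicle group the ratio was 6.67, which leaves out the counting error of the OXA reads and the spread between libraries. The count of risen genes was 2 without OXA replicate 1 or 2 or vehicle replicate 3.

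T cell markers moved less clearly. Of 27 tested 3 rose, and 12 had an unadjusted p under 0.05 in the upward direction (1504 of all 15531 genes). The risen 3 were Havcr2, Icos and Trbc2. Of the 27, 16 entered only with the help of OXA libraries, 2 of the risen 3 among them. These counts are therefore not read as a result about the list. Havcr2 (Tim-3), found on activated T cells and on myeloid cells, was at 0.970, 8.63, 0 and 1.64 and then at 45.8, 46.4, 16.1 and 27.6 (3.60 ± 0.67, adjusted p = 0.00384). Icos, a costimulatory receptor, was at 5.85, 19.0, 10.7 and 0 and then at 273, 248, 11.1 and 64.6, with replicate 3 inside the vehicle range (3.76 ± 0.91, adjusted p = 0.0324), a call lost without OXA replicate 1 or 2 or vehicle replicate 1, 3 or 4 and under 5 other alternatives (adjusted p of 0.0514 to 0.164). Trbc2, a T cell receptor constant region, was at 40.0, 305, 61.6 and 23 and then at 964, 778, 225 and 189.9 (2.69 ± 0.58, adjusted p = 0.0142). Vehicle replicate 2 lay inside the OXA range, and the call was lost without OXA replicate 1 or 2 or vehicle replicate 1 or 4 and under 3 other alternatives (adjusted p of 0.0612 to 0.0895). Cd3g, part of the T cell receptor complex, was at 0.970, 19.9, 0.760 and 0 and then at 66.0, 39.3, 12.4 and 37.8 and did not pass (3.56 ± 0.95, adjusted p = 0.0598), but passed without OXA replicate 3, vehicle replicate 2 or WT vehicle replicate 1 or 4, with a pseudocount of 5 and with quantile normalization (adjusted p of 0.00694 to 0.0487). Cd3e had 7 reads under vehicle and 20 under OXA, and Cd8a 7 and 29. Cd4 stood at 0.99 ± 0.63, adjusted p = 0.498 (95% confidence interval -0.32 to 2.29) and Cd8b1 at 1.11 ± 0.57, adjusted p = 0.389. Tbx21 (T-bet) stood at -1.13 ± 0.89, adjusted p = 0.601. The changes of Cd4 and Tbx21 were smaller in KO than in WT (interaction -3.78 ± 0.88, adjusted p = 0.00574 for Cd4, and -5.45 ± 1.26, adjusted p = 0.0053 for Tbx21). The number of risen T cell markers ran from 1, without OXA replicate 1 or 2 or vehicle replicate 1 or 4, to 6 without OXA replicate 3, and was 5 without vehicle replicate 2. Of 13 B and plasma cell markers none passed in limma (0 upward and 1 downward with an unadjusted p under 0.05), and 1 each in edgeR and DESeq2. The part of their summed level, highest in replicate 2 of each group, in the other results was not tested.

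**Figure D3:**
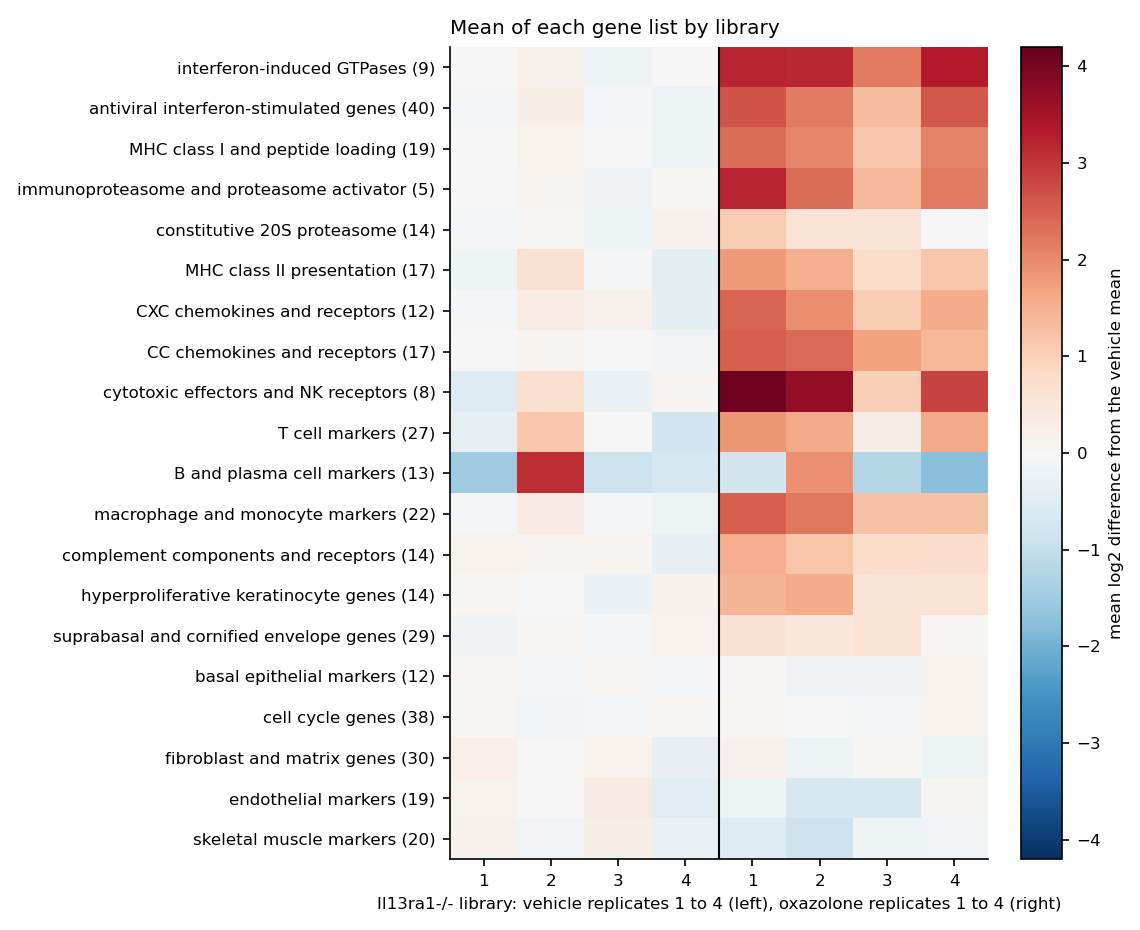
Each cell is the mean over a list's tested members (number in brackets) of the log2 difference from the vehicle mean, for vehicle replicates 1 to 4 and OXA replicates 1 to 4 of KO. The GTPase, antiviral, presentation, chemokine, cytotoxic and macrophage lists are above 0 in all 4 OXA libraries. Of the 8 cytotoxic genes, however, 7 entered only with the help of OXA libraries. The GTPases and antiviral genes are weakest in OXA replicate 3. The B cell list is high in vehicle replicate 2 and OXA replicate 2.

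Macrophage and complement genes rose. Of 22 macrophage and monocyte markers 15 rose and 0 fell, and all 22 changes were above 0 (range 0.08 to 4.88). Of the 22, 6 entered only with the help of OXA libraries, and 4 of these rose, Fcgr4 among them. Fcgr4, an activating Fc receptor of monocytes and macrophages, was at 0, 6.04, 2.28 and 9.85 under vehicle and at 293, 173, 37.1 and 96.1 under OXA (4.88 ± 0.72, adjusted p = 3.57e-04). Adgre1, which encodes F4/80, was at 75.0, 63.0, 86.7 and 59.1 and then at 304, 229.8, 131 and 177 (1.5 ± 0.23, adjusted p = 4.73e-04). Aif1 changed by 3.06 ± 0.43, adjusted p = 2.32e-04 and Fcgr1 by 2.35 ± 0.48, adjusted p = 0.00919. Tyrobp, the adaptor of many myeloid receptors, was at 103, 129, 74.6 and 67.3 and then at 739, 512, 243 and 196 (2.01 ± 0.35, adjusted p = 0.00206), against 0.11 ± 0.35, adjusted p = 0.84 in WT (interaction 1.90 ± 0.49, adjusted p = 0.0112). Lyz2, lysozyme of macrophages and neutrophils, also changed more in KO (KO 1.19 ± 0.23, WT 0.01, interaction 1.18 ± 0.32, adjusted p = 0.0149), a difference that did not pass with equal library totals (adjusted p = 0.0600). The macrophage-made complement subunits C1qa, C1qb and C1qc changed by 1.62 ± 0.25, 1.90 ± 0.24 and 1.43 ± 0.24, and C4b by 1.95 ± 0.27, adjusted p = 2.30e-04. Of 14 complement genes 6 rose (10 with DESeq2). Slfn4, a Schlafen gene of myeloid cells, was at 0, 12.9, 3.8 and 1.64 and then at 138, 307, 13.6 and 377 (5.09 ± 0.92, adjusted p = 0.00282). Sirpb1c, a signal-regulatory receptor gene, was at 0.970, 0, 5.33 and 0 and then at 40.3, 59.5, 17.3 and 24.4 (4.13 ± 0.70, adjusted p = 0.00172). Of 12 dendritic and Langerhans cell markers 1 rose, and it entered only with the help of OXA libraries: Batf3, a factor of cross-presenting dendritic cells (1.88 ± 0.48, adjusted p = 0.0443). The count was 0 without OXA replicate 1 or 2 or vehicle replicate 1 or 4, and 3 without OXA replicate 4. Cd207 (langerin) was at 1.95, 5.18, 2.28 and 8.21 and then at 18.3, 26.2, 6.19 and 6.30 and did not pass (1.41 ± 0.73, adjusted p = 0.39), while it fell in WT (-3.32 ± 0.73, adjusted p = 0.0016, interaction 4.73 ± 1.03, adjusted p = 0.00368).

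Some genes known to answer IL-4 and IL-13 rose in KO. Of 15 tested 6 rose and 0 fell, the risen being Ccl8, Ccl22, Retnla, Mrc1, Chil3 and Pdcd1lg2. Of the 6 risen, 3 entered only with the help of OXA libraries, and the number risen was 3 with the stricter filter. Ccl22, a dendritic cell and macrophage chemokine, was at 1.95, 0, 1.52 and 6.57 under vehicle and at 51.3, 33.3, 13.6 and 14.2 under OXA (3.20 ± 0.64, adjusted p = 0.00786), a call lost in a fit to the 8 KO libraries (adjusted p = 0.0646). Pdcd1lg2 (PD-L2), a ligand of the checkpoint receptor PD-1, was at 0, 2.59, 0 and 0 and then at 14.7, 14.3, 6.19 and 29.1 (3.46 ± 0.84, adjusted p = 0.0344), a call lost without OXA replicate 1 or 2, vehicle replicate 1, 3 or 4 or any 1 WT OXA library and under 4 other alternatives (adjusted p of 0.0522 to 0.107). Retnla (Relm-alpha), a marker of alternatively activated macrophages, was at 1659.9, 1930.5, 1518 and 1906 under vehicle and at 7642, 7666, 6417 and 3272 under OXA (1.76 ± 0.25, adjusted p = 2.30e-04). Mrc1, the mannose receptor CD206, changed by 1.14 ± 0.21, adjusted p = 0.00317. Chil3 (Ym1) was at 0, 6.90, 0 and 0 and then at 22, 47.6, 13.6 and 21.3 (3.87 ± 0.82, adjusted p = 0.0127), a call lost without OXA replicate 2 or vehicle replicate 1 or 3 (adjusted p of 0.0507 to 0.0695). For Retnla, Mrc1 and Chil3 the interaction did not pass (adjusted p = 0.447, 0.916 and 0.596). Chil4 (Ym2), a close paralog of Chil3 with which reads may be shared, was at 616, 481, 158 and 489 and then at 1683, 4308, 658 and 279 and did not pass (1.46 ± 0.73, adjusted p = 0.365). Its change in WT was 7.42 (interaction -5.95 ± 1.03, adjusted p = 5.67e-04). Alox15, a lipoxygenase, stood at 0.29 ± 1.01, adjusted p = 0.927 (95% confidence interval -1.81 to 2.40) against 6.66 in WT (interaction -6.36 ± 1.43, adjusted p = 0.0044). Its sign in KO changed with edgeR, with DESeq2 and without vehicle replicate 3. Chil1, a chitinase-like protein of the same family but not on this list, was at 15.6, 25.9, 9.13 and 21.3 and then at 741, 923, 61.9 and 179 (4.06 ± 0.58, adjusted p = 2.89e-04).

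Type 2 cytokines and their receptors gave no call in limma. Il13 had 1 read over the vehicle libraries and 4, 3, 2 and 6 reads in the OXA libraries, and Il4 had 3 reads and 12 reads over the groups. Il5 had 30 reads under vehicle, 21 of them in replicate 3, and 13 under OXA. Of 4 type 2 cytokines and alarmins tested, 1 was higher at an unadjusted p under 0.05, namely Il10, and edgeR and DESeq2 called 0. Il10, a cytokine that dampens inflammation, was at 0.970, 0, 0 and 13.1 under vehicle and at 53.2, 10.7, 6.19 and 13.4 under OXA (2.80 ± 0.84, adjusted p = 0.105), and passed without vehicle replicate 4 (adjusted p = 0.0154). Il33, an epithelial alarmin, stood at 0.39 ± 0.21, adjusted p = 0.416. Il13ra2, the decoy receptor, had 0 reads under vehicle and 8 under OXA, all in replicate 4. Of 6 type 2 cytokine receptor genes none passed in limma (2 upward and 0 downward with an unadjusted p under 0.05), 0 in edgeR and 1 in DESeq2. Il13ra1, the deleted gene, passed with DESeq2 only (adjusted p = 0.0445). Il4ra was at 77.0, 75.9, 51.7 and 55.8 and then at 95.3, 79.8, 85.4 and 84.3 (0.42 ± 0.24, adjusted p = 0.441), and its rise in WT was larger (2.35 ± 0.24, adjusted p = 4.86e-07, interaction -1.93 ± 0.34, adjusted p = 6.03e-04). Only 2 of 10 eosinophil markers were abundant enough to test, and 0 of them had an unadjusted p under 0.05 or a call in limma, edgeR or DESeq2. Ccr3, the eotaxin receptor, had 0 reads under vehicle and 7 under OXA, 5 of them in replicate 2. Prg2 (major basic protein) had 1 and 2 reads, and Siglecf 1 and 4. Epx, eosinophil peroxidase, is listed at 0 in all 16 libraries. So are Irf8 and Il2rg, which many immune cells use, so a 0 throughout may be a failed estimate for these 3 genes. Ear2, an eosinophil-associated ribonuclease, stood at 0.06 ± 0.54, adjusted p = 0.972, with a sign that changed under 7 alternatives. The summed level of the eosinophil list ran from 21.3 to 52.6 under vehicle and from 23.6 to 89.3 under OXA. Of 5 mast cell and basophil markers tested 0 passed in limma, edgeR or DESeq2, and 0 had an unadjusted p under 0.05. Their summed level ran from 45.8 to 222 under vehicle and from 68.5 to 995 under OXA, and 2 rose without OXA replicate 4. Of 6 neutrophil markers 1 rose, and it entered only with the help of OXA libraries: S100a8, a calprotectin subunit that keratinocytes also make (2.67 ± 0.67, adjusted p = 0.0407). That call was lost without OXA replicate 1 or 2, vehicle replicate 1, 3 or 4, any 1 WT OXA library or WT vehicle replicate 3 and under 5 other alternatives (adjusted p of 0.0533 to 0.174).

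The listed epithelial genes called in KO were few, but not fewer than the background in every list. In the hyperproliferative and suprabasal lists the share that rose was above the background of 1.93%. No gene of these lists fell (background 0.103%). How much of the other changes took place in epithelial cells cannot be told apart in whole tissue. Of 14 hyperproliferative keratinocyte genes tested 2 rose, Krt6a and Krt6b, keratins of wounded epithelium. Before adjustment, p lay under 0.05 for 6 upward and 0 downward changes of the 14 (1504 and 767 of all 15531 genes). DESeq2 called 4 of the 14. Krt6b was at 1084, 533, 494 and 794 under vehicle and at 16368, 28244, 1972 and 2171 under OXA (3.27 ± 0.61, adjusted p = 0.00396). The OXA libraries fell into a higher pair, replicates 1 and 2, and a lower pair, replicates 3 and 4. Krt6a was at 2428, 919.9, 1045 and 1006 and then at 10398, 11746, 2768 and 3723 (2.27 ± 0.46, adjusted p = 0.00865), and its change in WT was larger (interaction -4.36 ± 0.65, adjusted p = 1.41e-04). Reads of these near-identical paralogs may be split between them. Krt16 was at 125, 42.3, 43.4 and 36.1 and then at 677, 1217, 100.3 and 318, with OXA replicate 3 inside the vehicle range (2.88 ± 0.77, adjusted p = 0.0585), and it passed without OXA replicate 3 or 4 or WT vehicle replicate 2, 3 or 4, with DESeq2, with edgeR and under 3 other alternatives (adjusted p of 0.00297 to 0.0497). Krt17 stood at 1.26 ± 0.44, adjusted p = 0.177. Krt17 passed without OXA replicate 3 and with DESeq2 (adjusted p of 0.00972 to 0.0144). Krt16 and Krt17 rose more in WT (interaction -5.24 ± 1.08, adjusted p = 0.00247 for Krt16, and -3.92 ± 0.62, adjusted p = 2.66e-04 for Krt17). Of 29 suprabasal and cornified envelope genes 2 rose, both of the small proline-rich family that is cross-linked into the envelope. Before adjustment, p lay under 0.05 for 5 upward changes and 1 downward change of the 29, and DESeq2 called 3. Sprr2d was at 23.4, 27.6, 4.57 and 27.9 and then at 422, 1856, 74.3 and 86.7 (3.87 ± 0.74, adjusted p = 0.00519). Sprr2h changed by 2.21 ± 0.53, adjusted p = 0.0306, a call lost without OXA replicate 1 or 2 or vehicle replicate 3 or 4 and under 3 other alternatives (adjusted p of 0.0598 to 0.138). Without OXA replicate 4 the numbers of risen genes were 5 for the hyperproliferative list and 4 for the suprabasal list, and without OXA replicate 3 the first was 4. The suprabasal list had 1 riser without OXA replicate 1 or 2 or vehicle replicate 3 or 4.

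Filaggrin and other genes of terminal differentiation fell in WT and did not pass in KO. Flg encodes filaggrin, which packs keratin filaments, and was at 79.0, 224, 278 and 353 under vehicle and at 458, 853, 385 and 596 under OXA. The groups did not overlap, but the test was not passed (1.42 ± 0.47, adjusted p = 0.152, 95% confidence interval 0.43 to 2.40). In WT Flg fell (-6.38 ± 0.47, adjusted p = 6.15e-09), and the effects differed between genotypes (interaction 7.80 ± 0.66, adjusted p = 1.67e-07). Lce1k, a late cornified envelope protein, stood at 0.41 ± 0.38, adjusted p = 0.665 in KO and at -7.07 in WT (interaction 7.48 ± 0.53, adjusted p = 1.79e-08). By the interaction 16 of the 29 suprabasal genes were higher in KO (background 11.1%) and 5 lower (background 8.15%). With equal library totals these were 15 and 6 (background 5.81% and 22.3%). Lor, loricrin, stood at -0.21 ± 0.25, adjusted p = 0.757 in KO and fell in WT (-2.35 ± 0.25, adjusted p = 1.08e-06, interaction 2.14 ± 0.36, adjusted p = 4.23e-04). Ivl, involucrin, ran from 4.87 to 13.7 under vehicle and from 3.15 to 16.5 under OXA. Krt4 and Krt13, the main suprabasal keratins, stood at 0.19 ± 0.59 and 0.22 ± 0.39 (95% confidence intervals -1.05 to 1.42 and -0.59 to 1.03), and Krt4 changed sign without OXA replicate 1. Of 12 basal markers 0 passed in limma and edgeR and 1 in DESeq2, and an unadjusted p under 0.05 was found for 1 upward and 2 downward. Krt5, the basal keratin, was at 17886, 15654, 18772 and 16567 and then at 16746, 15534, 18792 and 20506 (95% confidence interval -0.40 to 0.51), and its sign changed with the scaling. Krt14, its partner, was at 2481, 2172, 2011 and 2240.4 and then at 5701, 3014, 2799.9 and 2847 (0.62 ± 0.20, adjusted p = 0.144, 0.0346 with DESeq2), and rose more in WT (interaction -1.41 ± 0.29, adjusted p = 0.00226). Krt15 stood at 0.36 ± 0.28, adjusted p = 0.595 and fell in WT (-2.38 ± 0.28, adjusted p = 3.03e-06, interaction 2.73 ± 0.39, adjusted p = 1.03e-04). Ly6d, a surface protein of stratified epithelium, rose in KO (1.03 ± 0.25, adjusted p = 0.0344) and fell in WT (-1.20 ± 0.25, adjusted p = 0.00104), with an interaction of 2.23 ± 0.36, adjusted p = 2.77e-04. The KO call on Ly6d was lost without OXA replicate 1, 2 or 3, vehicle replicate 1, 2 or 3 or WT OXA replicate 2 and under 4 other alternatives (adjusted p of 0.0514 to 0.143).

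**Figure D4:**
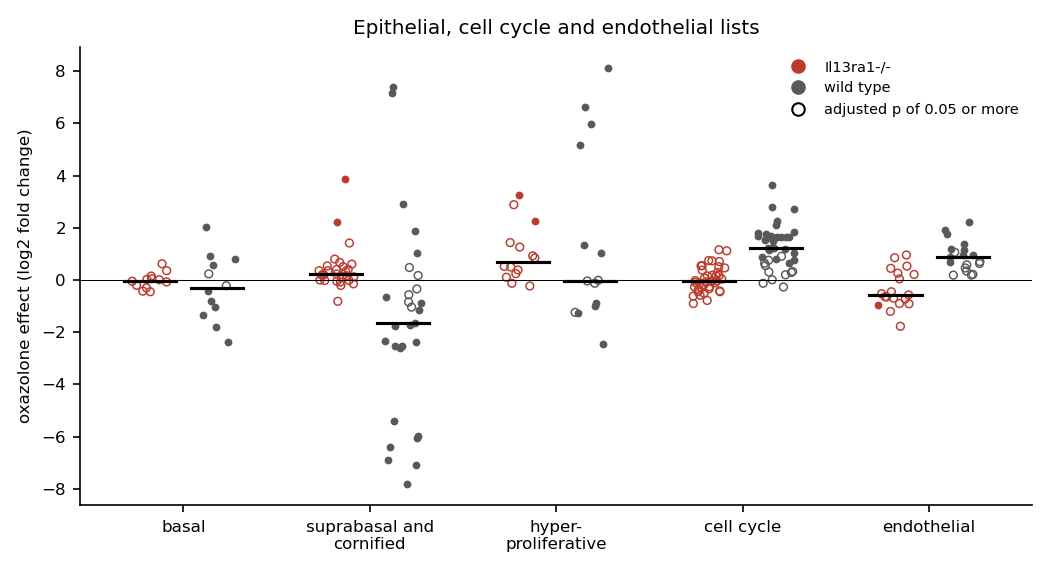
Points are the OXA effects (log2 fold change) of single genes in KO (red) and WT (grey) for 5 lists, filled where the adjusted p is under 0.05, with black lines at the medians. In KO the medians of the 5 lists lie between -0.57 and 0.68, while in WT the cell cycle median is 1.23 and the suprabasal median -1.66.

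Of the 38 listed cell cycle genes tested, limma called none in KO. Cell cycle genes outside the list went both ways. Kif23, a mitotic kinesin, fell, while Gins1 (1.32 ± 0.32, adjusted p = 0.0319) and Uhrf1 (1.07 ± 0.27, adjusted p = 0.0458) rose. The calls on Kif23, Gins1 and Uhrf1 were lost under 12, 9 and 14 of the 29 alternatives. In the list 7 upward and 3 downward changes had an unadjusted p under 0.05 (1504 and 767 over all 15531 genes). In edgeR 1 listed gene passed, and in DESeq2 3. The median was -0.04 in KO and 1.23 in WT, where 27 rose (background 18.4%). The interaction was lower in KO for 19 of the 38 (background 8.15%), and for 29 with equal library totals (background 22.3%). Mki67 (Ki-67), present in all cycling cells, was at 712, 800.0, 687 and 869.9 under vehicle and at 209, 647, 644 and 769 under OXA. OXA replicate 1 was the lowest library of all 8, and the change was -0.59 ± 0.33, adjusted p = 0.435 (95% confidence interval -1.27 to 0.10, interaction -2.23 ± 0.46, adjusted p = 0.00258). Rrm2, a subunit of ribonucleotide reductase, stood at 0.29 ± 0.21, adjusted p = 0.56 (interaction -3.33 ± 0.30, adjusted p = 2.53e-07). Mcm3, a subunit of the replicative helicase, was at 29.2, 31.9, 44.1 and 44.3 and then at 49.5, 70.2, 52.0 and 47.3, without overlap. The test on Mcm3 in KO was not passed (0.54 ± 0.26, adjusted p = 0.336, interaction -2.24 ± 0.36, adjusted p = 3.29e-04). Mcm5, another helicase subunit, stood at 1.12 ± 0.31, adjusted p = 0.0693, and passed with DESeq2 and with no trend (adjusted p of 0.027 to 0.0431). Without OXA replicate 4, 3 listed cell cycle genes rose and 1 fell.

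The 16 genes that fell formed no single list. Vdr, the vitamin D receptor, was at 443, 369, 454 and 376 under vehicle and at 262, 255, 210.4 and 258 under OXA, a drop in all 4 OXA libraries (change -0.73 ± 0.15, adjusted p = 0.00914). Syne2, which links the nucleus to the cytoskeleton, was at 614, 573, 545 and 730.4 and then at 231, 338, 271 and 459 (change -0.96 ± 0.19, adjusted p = 0.00854). Of the 16, these 2 stayed called under all 29 alternatives run. The others were Flt1, Peg3, Ttc12, Shank3, Nynrin, Kcna2, Fam19a5, Akap6, Kif23, Tnnt2, Ptpn3, Dnajb12, Rpa1 and Msi2, with changes between -1.62 and -0.59. Flt1, a receptor for vascular endothelial growth factor, was at 892, 849, 1169 and 860.0 and then at 348, 394, 529.8 and 743 (change -0.95 ± 0.22, adjusted p = 0.0249). It differed from WT (interaction -1.17 ± 0.31, adjusted p = 0.0133), and its KO call was lost without OXA replicate 1 or 2 or vehicle replicate 1 or 3, in a fit to the 8 KO libraries and with no trend (adjusted p of 0.0554 to 0.125). It was the 1 fallen gene of 19 endothelial markers, of which 9 were lower and 2 higher at an unadjusted p under 0.05 (767 and 1504 of all 15531 genes). Without OXA replicate 4, 3 of them fell and 1 rose, and without OXA replicate 2 or vehicle replicate 1 or 3 none fell. Their median was -0.57 in KO and 0.89 in WT. Pecam1 (CD31) stood at -0.52 ± 0.25, adjusted p = 0.339 (interaction -1.69 ± 0.35, adjusted p = 0.00251) and Prox1, the lymphatic regulator, at -1.77 ± 0.55, adjusted p = 0.116 (interaction -3.54 ± 0.78, adjusted p = 0.00375). Prox1 passed without OXA replicate 4 and with DESeq2 (adjusted p of 0.0237 to 0.0278). Peg3, an imprinted zinc finger gene, was at 246, 249, 305 and 297 and then at 84.3, 111, 186 and 169 (change -1.05 ± 0.23, adjusted p = 0.0137, interaction -1.43 ± 0.32, adjusted p = 0.00424), and was not called without OXA replicate 1 or 2 or vehicle replicate 3 and in a fit to the 8 KO libraries (adjusted p of 0.0573 to 0.0652). Titin (Ttn) of striated muscle was at 41601, 28714, 35562 and 22809 and then at 6694, 11875, 16570.2 and 27819 and did not pass (-1.18 ± 0.36, adjusted p = 0.11), but passed without OXA replicate 4 (0.00894). Among 30 fibroblast and matrix genes 0 passed in limma, edgeR or DESeq2, and 0 had an unadjusted p under 0.05. Cyp2f2, a cytochrome known from airway epithelium, was at 30808, 25431, 32200.2 and 33988 and then at 32806, 17136, 25611 and 22882 (-0.34 ± 0.22, adjusted p = 0.502) and fell in WT (-5.62 ± 0.22, adjusted p = 1.22e-12, interaction 5.27 ± 0.31, adjusted p = 1.47e-09).

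Transcript length moved with the direction of change. The longest annotated transcript (GENCODE M21) had a median of 2413 bases in the risen genes, 6402 bases in the fallen genes and 3223 bases in all genes tested, and no fallen gene had one shorter than 2649 bases. Over 5 equal classes from shortest to longest, the median log2 fold change in KO went from 0.09 to -0.10, and in WT from -0.23 to 0.31. In the KO libraries the largest trend was in OXA replicate 1, from 0.32 to -0.25, followed by replicate 3, from 0.18 to -0.11. In OXA replicate 2 the shortest and longest classes were both at 0.02. The part of transcript length in the results was not tested.

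**Figure D5:**
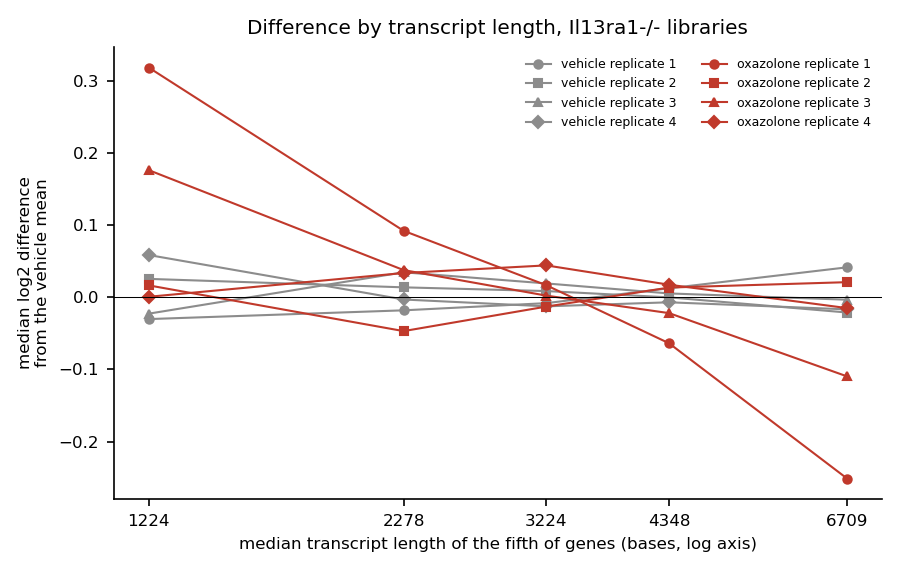
Lines give, for each KO library, the median log2 difference from the vehicle mean in 5 classes of genes by transcript length (x axis, median length of the class in bases, log axis). OXA replicate 1 goes from 0.32 in the shortest class to -0.25 in the longest, and the 4 vehicle libraries lie between -0.03 and 0.06.

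The KO and WT responses shared no library. Of the 300 genes that rose in KO, 229 also rose in WT (76.3% of the KO list and 8.02% of the 2854 genes that rose in WT), 11 fell in WT and 60 did not pass there. In WT 5533 genes, 35.6% of those tested, were called. For 62 of the 300 the interaction passed with the KO effect above the WT effect, the 11 that fell in WT among them, and for 12 with the KO effect below it. Over all genes tested the interaction was higher in KO for 1725 (11.1%) and lower for 1266 (8.15%), a split that turned with the scaling: with equal library totals it was 902 (5.81%) and 3467 (22.3%). That scaling shifted the median interaction by -0.44 and the median KO change by -0.12 (log2). Of the 16 fallen genes 3 also fell in WT and 10 were lower in KO by the interaction. The interaction contains the KO effect by which the 300 and the 16 genes were selected. Its counts among them are therefore not read as a result.

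The 4 OXA libraries differed from each other in the size of the response. The mean log2 difference of the 9 GTPases from the vehicle mean was 3.19, 3.16, 2.17 and 3.34 in OXA replicates 1 to 4, and that of the 40 antiviral genes was 2.64, 2.2, 1.33 and 2.59. Class I genes stood at 2.36, 2.06, 1.12 and 2.1 and cytotoxic genes at 4.10, 3.70, 1.0 and 2.84. In all 4 lists replicate 3 was lowest. For the GTPase, antiviral and class I lists every OXA library was above every vehicle library. Of the 8 tested cytotoxic genes 7 entered only with the help of OXA libraries, so the order of their groups is not read as a result. Macrophage markers stood at 2.52, 2.2, 1.22 and 1.23, with replicates 1 and 2 above 3 and 4. Hyperproliferative keratinocyte genes showed the same pairs, at 1.41, 1.56, 0.54 and 0.58. Constitutive proteasome subunits stood at 1.06, 0.58, 0.55 and -0.01, with replicate 4 inside the vehicle range. Cell cycle genes ran from -0.13 to 0.13 over the 8 KO libraries.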

How the data were processed

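RNA was measured by CEL-Seq, a 3'-end RNA-seq method, in 16 esophagus libraries, 4 per group. Per the submitters' processing notes, FastQC 0.11.5, Trim Galore, cutadapt 1.10, TopHat2 2.1.0 with Bowtie2 2.2.6 on GRCm38, HTSeq 0.6.1 and DESeq2 1.28.0 were used, with no role or order given. The deposited signal is 1 gene table of normalized counts. Every value is a whole read count divided by 1 size factor per library (100% whole within 0.1 reads), which gave the reads and depths. UMI handling is not given in the sources used here, and intervals from counts cover counting error only.

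Genes with values of 5 or more in 4 or more of the 8 KO libraries were tested with limma 3.58.1 (R 4.3.3) on log2(value + 1), with 4 group means over all 16 libraries, a mean-variance trend, two-sided moderated tests and Benjamini-Hochberg adjustment over 15531 genes (threshold 0.05). The interaction is the KO effect minus the WT effect. Alternatives were other pseudocounts, filters, scalings and fits, edgeR 4.0.16 and DESeq2 1.42.0 on the recovered reads, and leaving out each library. On data simulated for this comparison (15946 genes), 50 of 100 genes changed 2-fold and 88 of 100 changed 4-fold were called, with 5 of 15746 unchanged genes. The changed genes were drawn from those with a KO mean of at least 20, so the shares do not cover genes nearer the filter. The simulated WT libraries took their means and spread from the KO libraries. Single values per library were tested by exact permutation (70 assignments).

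The members and the 39 gene lists were chosen with earlier results of these data known. Genes were named by a rule: the 15 largest rises and up to 15 falls without overlap and with a mean of at least 10, up to 4 members per list by p, up to 8 passing the interaction in each direction, up to 2 per list passing only the interaction, and a set of interferon, type 2 and keratinocyte genes. Not every gene the rule names is described. Ly6d, Stat2, Chil1, Tapbp, Ifit1, Lyz2, Bst2, Tyrobp, H2-DMa, H2-Q7, Gbp3, Gbp7, Irgm1, Fcgr1, Pdcd1lg2, Il10, Msi2, Gins1 and Uhrf1 and the motif CTGATTGG were chosen after their values were seen. Paralogs of the H2, Gbp, Krt6, Sprr2, Chil and Ccl families may share reads. Cxcl11, Capn14, Gbp11, Mx2, Oas1b, H2-T10 and some Il36 genes were not analysed here.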

Additional observations from a re-analysis of the deposited data

Results flagged for a closer look

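In the 4 libraries of a group, the gap of the highest or lowest library to its neighbour was divided by the range of the group and set against Dixon's 95% critical value. Of 250 gene groups checked, 24 passed, and chance passes about 1 in 20. OXA replicate 1 stood apart for Krt14 (0.926) and Il10 (0.847). OXA replicate 3 stood apart for Gbp7 (0.881), H2-Q7 (0.837), Nlrc5 (0.871) and Vdr (0.857). Vehicle replicate 1 stood apart for Oas3 (0.882), Krt6a (0.917) and Krt16 (0.918). Vehicle replicate 2 stood apart for Irgm1 (0.852), H2-Aa (0.968), Cd3g (0.951), Trbc2 (0.863), Lyz2 (0.842), Chil3 (1), Alox15 (0.834), Pdcd1lg2 (1) and Nkg7 (0.888). Vehicle replicate 3 stood apart for Xcl1 (0.874) and Flt1 (0.867). Vehicle replicate 4 stood apart for Gbp2 (0.959), H2-Eb1 (0.913), Il10 (0.926) and Gzma (0.852). 

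The OXA effect differed between KO and WT by the interaction in these genes, given as the KO effect minus the WT effect (log2). It was higher in KO, under every alternative run, for Irf9 (1.84), Gbp2b (2.55), Ifi27l2a (3.41), Psmb3 (1.21), Ccl8 (2.60), Ccl12 (3.76), Ccl6 (1.5), Tyrobp (1.90), C1qb (1.45), Cd207 (4.73), Flg (7.80), Lce1k (7.48), Krt15 (2.73), Ly6d (2.23), Cyp2f2 (5.27), Psma4 (1.04) and Lor (2.14). It was higher in KO, but not under every alternative, for Stat6 (0.88, not passed under 1 of 28), Gbp2 (1.56, not passed under 2 of 28), H2-Aa (1.40, not passed under 16 of 28), H2-Eb1 (1.08, not passed under 8 of 28), Lyz2 (1.18, not passed under 1 of 28) and C1qc (1.06, not passed under 12 of 28). It was lower in KO, under every alternative run, for Socs1 (-1.75), Cd4 (-3.78), Tbx21 (-5.45), Il4ra (-1.93), Chil4 (-5.95), Alox15 (-6.36), Krt6a (-4.36), Krt16 (-5.24), Krt17 (-3.92), Sprr2h (-5.20), Krt14 (-1.41), Mki67 (-2.23), Rrm2 (-3.33), Mcm3 (-2.24), Peg3 (-1.43), Flt1 (-1.17), Prox1 (-3.54) and Pecam1 (-1.69). It was lower in KO, but not under every alternative, for Tap2 (-1.14, not passed under 14 of 28), Ear2 (-2.33, not passed under 13 of 27), Krt6b (-2.70, not passed under 13 of 28) and Sprr2d (-3.27, not passed under 14 of 28). What these differences come from was not tested.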

How the results depend on the processing

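Depth limits the sparse genes: 3 reads over a group are 0.0583 CPM under vehicle and 0.0648 under OXA, so Ifng, Prf1 and the type 2 cytokines rest on counts of reads alone. No paired analysis was possible because the codes in the labels differ between groups and replicate numbers are accession order only.

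The count of 300 risen genes was 639 with DESeq2 and ran from 176 to 881 when 1 library was left out. The 16 fallen genes became 67 with DESeq2, 34 with quantile normalization, 27 with array weights, 9 with no filter, 7 in a fit to the 8 KO libraries and 3 to 159 when 1 library was left out. With equal library totals the interaction was higher in KO for 902 genes and lower for 3467. Over the refits of the genes described, the KO effect kept its direction and side of the threshold in 3303, lost its call in 140, gained one in 29 and changed sign in 15, and the interaction kept its call in 1162 and lost it in 94. Signs changed for Ear2 (-0.031 with DESeq2, -0.025 with edgeR, -0.15 with array weights, -0.058 with equal totals, -0.13 with quantile normalization and -0.41 to 0.35 when 1 library was left out, below 0 without OXA replicate 2 or vehicle replicate 4), Alox15 (-0.59 with DESeq2, -0.79 with edgeR and -0.39 without vehicle replicate 3 to 1.16), Krt5 (-0.072 with equal totals, -0.20 with quantile normalization and -0.017 without OXA replicate 4 to 0.12), Krt4 (-0.028 without OXA replicate 1 to 0.34) and Ccl24 (-0.0046 without vehicle replicate 4 to 0.74). The difference in genes above 0 (407 more under OXA) ran from -1097 without OXA replicate 4 to 1161 without OXA replicate 1, and was -10.8 without vehicle replicate 4. The cause was not tested.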

Other observations

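Muscle and fat markers lay mostly below 0 in KO, with no call over all libraries. Of 20 skeletal muscle markers limma, edgeR and DESeq2 called 0, with a median log2 fold change of -0.41. At an unadjusted p under 0.05, 4 of these markers were lower (767 of all 15531 genes). Without OXA replicate 4, 3 of them fell. Their summed level ran from 365458 to 521739 under vehicle and from 253870 to 408428 under OXA. Of 11 smooth muscle markers all 3 tools called 0, with 1 lower at an unadjusted p under 0.05 and a median of -0.32. All 9 adipocyte markers had a change below 0 (median -0.58), and all 3 tools called 0, with 3 lower at an unadjusted p under 0.05.

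Of 18 immediate early and stress genes limma and edgeR called 0 and DESeq2 called 1. At an unadjusted p under 0.05, 5 of them were higher (1504 of all 15531 genes). In limma 1 rose without OXA replicate 2 or vehicle replicate 4. OXA replicates 3 and 4 stood highest on this list, at a mean of 0.45 and 0.56 above the vehicle mean, against 0.08 and -0.05 in replicates 1 and 2. Of 6 keratinocyte and inflammatory cytokine genes limma called 0 and edgeR and DESeq2 called 1 each, with 1 higher at an unadjusted p under 0.05, and 2 rose without OXA replicate 4. Of 4 interferon and IL-12 family ligands tested all 3 tools called 0, with 1 higher at an unadjusted p under 0.05, and 1 rose without OXA replicate 4. The 2 mitochondrial rRNAs, the 4 sex-linked genes and the tested markers of thyroid (2), airway (2), lymph node stroma (2) and glandular stomach (3) had no call in any of the 3 tools or at an unadjusted p under 0.05.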
